A study of Mus musculus with 123 samples.

Results

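Late inner cell masses (ICMs) of control embryos were compared between the lines made to delete Oct4 and Sox2, each ICM profiled as a single-embryo RNA-seq library. The members were the 8 Oct4 Ctrl and the 8 Sox2 Ctrl late ICMs, 16 of the 123 libraries of the series, taken by line, genotype and stage as labelled, and the embryos labelled MWT were left out. Every Ctrl embryo had a mother that was homozygous for a floxed allele and carried Zp3-Cre, which deletes in the growing oocyte, so its maternal allele of the line's own gene was lost and its paternal allele was intact. Oct4 Ctrl embryos thus came from Pou5f1 flox/flox; Zp3-Cre mothers and had 1 intact copy of Pou5f1 beside unaltered Sox2, and Sox2 Ctrl embryos came from Sox2 flox/flox; Zp3-Cre mothers and had 1 intact copy of Sox2 beside unaltered Pou5f1. Fathers were heterozygous for a fluorescently labelled KO allele (Pou5f1 +/mKO2 or Sox2 +/EGFP), and Ctrl embryos were those without the label. The labels give B6C3F1 as the cell line of all 16, at E4.5. Embryos of both lines came from superovulated females and grew from E2.5 in KSOM medium with 1 µM PD0325901, a MEK inhibitor (MEKi) that blocks the signal for primitive endoderm. Immunosurgery was used to remove the trophectoderm. Line, parental stock and the deleted maternal gene moved together in this design and cannot be told apart.

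Oct4, encoded by Pou5f1, is a POU-domain factor, and Sox2 is an HMG-box factor. They bind DNA side by side at composite motifs and maintain the pluripotent cells of the blastocyst. The late ICM holds the epiblast, which expresses Nanog and gives rise to the embryo proper, and the primitive endoderm, which expresses Gata4 and Sox17 and forms the yolk sac. In the comparison of Ctrl embryos with each other, each line has a reduced dose of a different member of the pair, and both groups serve as the reference for their own KO.

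Sequencing depth differed between the groups. Totals ran from 525755 to 747472 unique molecular identifiers (UMIs, tags that count each captured molecule once) in Oct4 Ctrl and from 737753 to 929681 in Sox2 Ctrl late ICMs (two-sided exact permutation p = 0.000466, n = 8 and 8). Oct4 Ctrl embryos had 12509 to 13195 genes with at least 1 UMI and Sox2 Ctrl embryos 12955 to 13897 (exact permutation p = 0.000622). After every library was thinned to the lowest total, the ranges were 12019 to 12557 and 12137 to 12700 (exact permutation p = 0.349). Y-linked genes reached 10 UMIs in 5 of 8 Oct4 Ctrl and 6 of 8 Sox2 Ctrl embryos (Fisher's exact test, two-sided, p = 1.0). The first principal component, which held 24.2% of the variance among 500 highly variable genes, placed the Oct4 Ctrl embryos between -2.93 and 29.5 and the Sox2 Ctrl embryos between -24.9 and -2.62.

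Epiblast markers were high in all 16 libraries. Values are given in CPM, the UMIs of a gene scaled to a library total of 1000000 UMIs, so that 1 CPM was less than 1 molecule in each library. Summed CPM of the 8 epiblast markers had a median of 2615 in Oct4 Ctrl (1940 to 3410) and 2640 in Sox2 Ctrl late ICMs (2210 to 3860). Nanog had medians of 958 and 965 CPM. The 6 primitive endoderm markers summed to 120 to 647 CPM in Oct4 Ctrl and 164 to 810 CPM in Sox2 Ctrl, and Gata4 was at 0 in 5 of 8 Oct4 Ctrl and in 0 of 8 Sox2 Ctrl embryos. The 7 trophectoderm markers summed to 104 to 945 and 131 to 2740 CPM, with Cdx2 at 0 in 0 of 8 and 1 of 8 embryos. In Sox2 Ctrl 1-10 this sum was 2740 CPM, beside an epiblast sum of 2210 CPM. How fully immunosurgery removed the trophectoderm was not tested. Marker sums overlapped between the groups for all 3 cell types. In whole-ICM libraries fewer cells of a type and less RNA per cell cannot be told apart.

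The question addressed first was whether the gene with the missing copy was lower in its own line. Pou5f1 was lower in Oct4 Ctrl late ICMs, and no embryo of either group reached the other. Pou5f1 (chr17:35506018-35510772, plus strand, mm10) had 23.4 CPM in the lowest Oct4 Ctrl embryo, a median of 43.8 and 61.6 in the highest. In Sox2 Ctrl late ICMs the lowest was 80.4 CPM, the median 95.9 and the highest 220. The log2 fold change, written throughout as Oct4 Ctrl over Sox2 Ctrl, was -1.33 ± 0.20 (SE), or 2.51-fold lower in Oct4 Ctrl (adjusted p = 2.87e-06, edgeR quasi-likelihood test with Benjamini-Hochberg adjustment over 14053 genes). Within the embryos numbered in the first series of the labels (label set 1, 5 Oct4 and 4 Sox2 Ctrl) it was -1.48, and within label set 2 (3 and 4) it was -1.28. An antisense gene, Gm19553, overlaps Pou5f1, and the counting is not stated to use strand.

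Sox2 likewise leaned lower in its own line, with more transcript in Oct4 Ctrl late ICMs, but the groups overlapped. Sox2 (chr3:34650405-34652461, plus strand) ran from 130 CPM through a median of 324 to 459 in Oct4 Ctrl and from 94.2 through 169 to 299 in Sox2 Ctrl. The log2 fold change of 0.84 ± 0.26 had an adjusted p of 0.0383 in the edgeR test and stayed under the minimum of 1 that was asked of a call. Label set 1 alone gave 1.35 (adjusted p = 0.0209) and label set 2 alone 0.41 (adjusted p = 0.637), and the difference between the sets was not tested. Leaving out each of the 16 embryos in turn gave 0.74 to 0.96, with adjusted p from 0.017 to 0.102. Sox2 lies inside the noncoding gene Sox2ot, which is on the same strand.

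**Figure D1:**
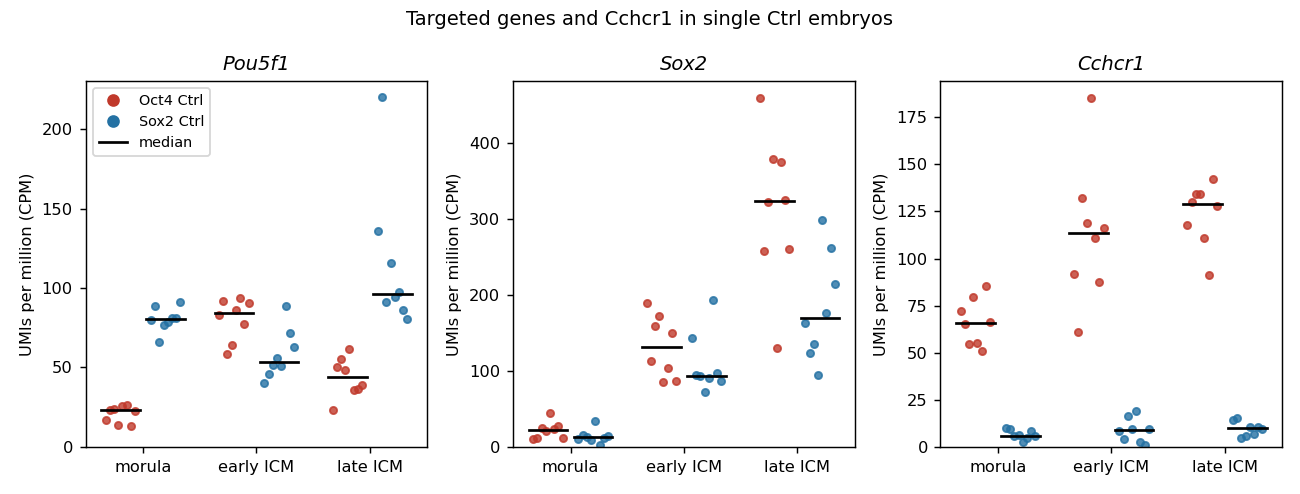
CPM per embryo of Pou5f1, Sox2 and Cchcr1 in Oct4 Ctrl and Sox2 Ctrl embryos at the morula, early ICM and late ICM stages (points are single embryos, 8 per group, and bars are medians). In late ICMs Pou5f1 was between 23.4 and 61.6 CPM in Oct4 Ctrl and between 80.4 and 220 CPM in Sox2 Ctrl, and Cchcr1 separated the lines at every stage.

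The Pou5f1 difference was not the same at all stages. In early ICMs (E3.75, same inhibitor, other embryos) the median was 84.6 CPM in Oct4 Ctrl and 53.7 CPM in Sox2 Ctrl, with a log2 fold change of 0.43 (adjusted p = 0.0906). In morulae (E2.75, no inhibitor) the medians were 23.1 and 80.6 CPM, with a log2 fold change of -1.95 (adjusted p = 2.99e-12). The line difference in late ICMs differed from that in early ICMs by -1.76 (edgeR interaction contrast, adjusted p = 1.4e-06). Sox2 was not called at either earlier stage (log2 fold change 0.25 in early ICMs and 0.67 in morulae). The late ICMs labelled Oct4 MWT had a Pou5f1 median of 51.4 CPM, from 22.6 to 96.1, a range that takes in that of the Oct4 Ctrl late ICMs. Oct4 MWT early ICMs and morulae had medians of 78.9 and 24.3 CPM. Sox2 MWT early ICMs had a median of 115 CPM, from 97.7 to 133, above all Sox2 Ctrl early ICMs (40.5 to 88.6).

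The clearest difference between the lines lay just beyond Pou5f1. Cchcr1, which encodes a coiled-coil protein of centrosomes, was 13.1-fold higher in Oct4 Ctrl late ICMs, the lowest adjusted p of all genes tested. It starts 6.3 kb past the annotated end of Pou5f1 on the same strand (chr17:35517100-35531015). Its CPM ran from 91.3 through a median of 129 to 142 in Oct4 Ctrl and from 4.62 through 10.1 to 15.3 in Sox2 Ctrl. The groups lay far apart, at a log2 fold change of 3.71 ± 0.24 (adjusted p = 4.69e-23). Early ICMs gave 3.61 and morulae 3.31, both called. The floxed Pou5f1 allele loses exons 2 to 5 when Cre acts and keeps the promoter and exon 1.

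Cchcr1 was also high in Oct4 KO embryos and low in the remaining groups of the series. Oct4 KO embryos, which also lack the maternal Pou5f1 exons, had medians of 49.9 CPM in morulae, 61.3 in early ICMs and 43.4 in late ICMs. Embryos labelled Oct4 MWT had medians of 6.79, 13.3 and 5.46 CPM at these stages. The medians of all Sox2 groups lay between 5.07 and 10.1 CPM. The tables hold gene totals alone, so the structure of the Cchcr1 transcripts was not examined.

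Psors1c2, the next named gene called on that side (27.2 kb from the start of Pou5f1), was also higher in Oct4 Ctrl late ICMs, from 0 through a median of 8.32 to 17.1 CPM against 0 through 1.19 to 2.22 CPM (log2 fold change 2.52 ± 0.57, adjusted p = 0.00234). The groups overlapped at their low ends. Within 5 Mb of Pou5f1, 170 genes were tested, 8 were called higher and 3 lower in Oct4 Ctrl, or 6.47%, beside 2.63% of all genes tested. These 5 Mb hold the major histocompatibility complex (MHC) in mouse. H2-K1, a classical MHC class I heavy chain that presents peptides, was lower in Oct4 Ctrl, from 9.09 through a median of 26.7 to 83.5 CPM against 60.1 through 167 to 245 CPM. Its log2 fold change was -2.05 ± 0.31 (adjusted p = 2.87e-06), and the highest Oct4 Ctrl embryo reached into the Sox2 Ctrl range. H2-Bl, another class I gene of the region, annotated as a polymorphic pseudogene, went the other way at 2.74 ± 0.70 (adjusted p = 0.00932), at medians of 6.54 and 0 CPM. These genes belong to a family of close copies, and reads shared among them make the counts uncertain.

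Also in that interval, Ly6g6e, a small GPI-anchored protein gene, was at 42.8 to 174 CPM in Oct4 Ctrl and 15.2 to 56.9 CPM in Sox2 Ctrl (log2 fold change 2.00 ± 0.31, adjusted p = 3.58e-06). Ddah2, a hydrolase of the dimethylarginine family, had a log2 fold change of 1.21 ± 0.30 (adjusted p = 0.00601). Dnah8, an axonemal dynein heavy chain, ran from 1.67 to 7.61 CPM against 0 to 1.2 CPM, with no overlap. C4b, a complement component, and Hspa1b, an inducible HSP70, were called lower in Oct4 Ctrl (-2.59 and -1.93). The C4b call was lost in 11 of the 16 removals of an embryo (adjusted p up to 0.183), and the Hspa1b call without Sox2 Ctrl 1-5 or 2-4 (up to 0.146). Ly6g6e and Ddah2 were chosen after their values were seen.

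Around Sox2, 45 genes within 5 Mb were tested and 1 was called (2.22%). That gene, Gm3143, has its lower coordinate 49.2 kb from the start of Sox2 and lies on the opposite strand and was at 0 to 1.9 CPM in Oct4 Ctrl and 4.73 to 17.6 CPM in Sox2 Ctrl late ICMs (adjusted p = 1.36e-05). The groups did not overlap. Among the autosomes the share called was between 1.46% and 3.86%, on the X chromosome it was 3.24%, and on the mitochondrial chromosome 18.2%, or 6 of 33 genes.

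Across the transcriptome the 2 groups of Ctrl late ICMs differed in 370 of 14053 genes tested, or 2.63%, at an adjusted p under 0.05 and a log2 fold change of at least 1 in size. Of these, 201 genes (1.43%) were higher in Oct4 Ctrl and 169 (1.2%) in Sox2 Ctrl. The median log2 fold change of all genes was 0.00386. Many called genes had few molecules, since 101 of the 201 and 94 of the 169 had a mean under 20 CPM in the group where they were higher. Predicted genes, Riken clones and numbered pseudogenes made up 26.4% of the genes higher in Oct4 Ctrl and 5.92% of those higher in Sox2 Ctrl, beside 14.7% of all genes tested. In 69 genes (0.491% of those tested) no embryo of a group reached into the range of the other group, and 32 of these were called, 8 higher in Oct4 Ctrl and 24 in Sox2 Ctrl.

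**Figure D2:**
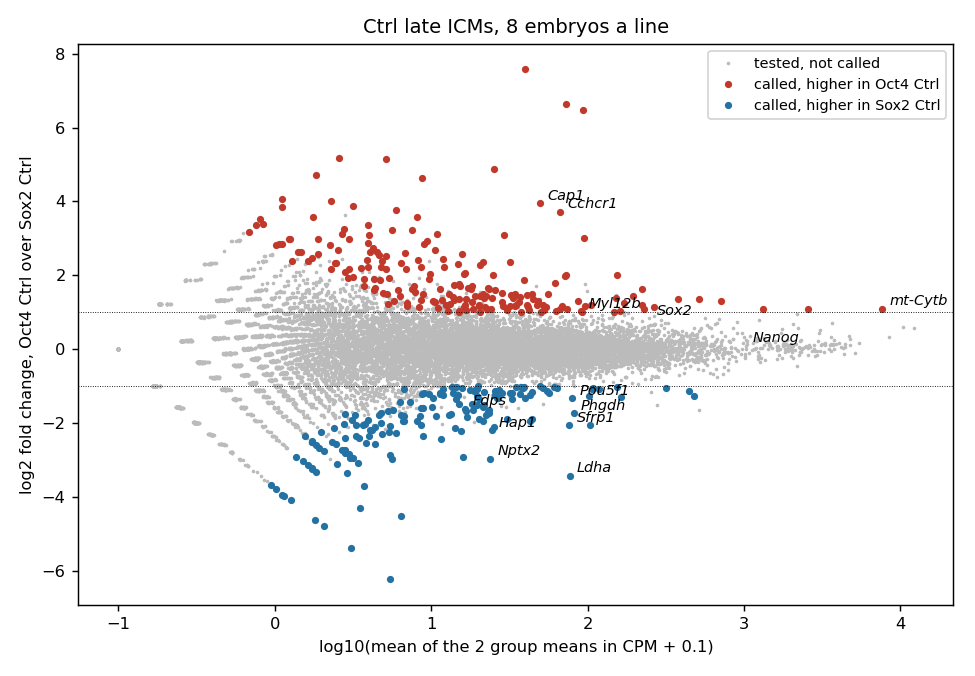
Log2 fold change of Oct4 Ctrl over Sox2 Ctrl late ICMs against mean CPM (log10 axis) for the 14053 genes tested, with the 201 genes called higher in Oct4 Ctrl and the 169 called higher in Sox2 Ctrl coloured. Cchcr1 lies at 3.71 and Ldha at -3.43.

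Ldha had the largest difference towards Sox2 Ctrl among the named genes without overlap and with a mean of at least 20 CPM. It encodes the A subunit of lactate dehydrogenase, which turns pyruvate into lactate. The Oct4 Ctrl late ICMs ran from 0 through a median of 7.89 to 28.1 CPM and the Sox2 Ctrl late ICMs from 48.8 through 114 to 251 CPM. The log2 fold change was -3.43 ± 0.48, or 10.8-fold lower in Oct4 Ctrl (adjusted p = 4.7e-07). In the other late ICMs the median was 0.582 CPM in Oct4 KO, 41.1 in Oct4 MWT and 168 in Sox2 KO. Ldha has 2 named pseudogenes, to which some of its reads could have been assigned.

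Nptx2, a secreted pentraxin known from synapses, was 7.82-fold lower in Oct4 Ctrl late ICMs, at 0 to 10.9 CPM against 14.9 to 102 CPM (log2 fold change -2.97 ± 0.47, adjusted p = 8.39e-06). Hap1, a partner of huntingtin in vesicle transport, was at 1.67 to 16.1 CPM against 27.1 to 60.7 CPM (-2.19 ± 0.39, adjusted p = 5.65e-05). Sfrp1, a secreted protein that binds Wnt ligands, was at 16.1 to 46.7 CPM against 63.1 to 180 CPM (-2.06 ± 0.31, adjusted p = 1.84e-06). None of these 3 genes overlapped between the groups. In Oct4 KO late ICMs the median of Sfrp1 was 0 CPM, and in Sox2 KO late ICMs it was 84.5 CPM.

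Phgdh, the enzyme that opens serine synthesis, ran from 20 through a median of 36.8 to 54.5 CPM in Oct4 Ctrl and from 97.5 through 115 to 221 CPM in Sox2 Ctrl (log2 fold change -1.73 ± 0.29, adjusted p = 1.78e-05). The difference was much the same within label set 1 (-1.72) and label set 2 (-1.69). Oct4 KO late ICMs stood above both Ctrl groups in the median, at 194 CPM, and Sox2 KO late ICMs between them at 78.3 CPM. Phgdh has 1 named pseudogene.

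Others on the Sox2 Ctrl side were also without overlap. Hsd17b11, a lipid droplet dehydrogenase, had a log2 fold change of -1.79 ± 0.42 (adjusted p = 0.00422), and Pnpla6, a phospholipase of the endoplasmic reticulum, -1.31 ± 0.24 (adjusted p = 0.000121). Acot7, which cleaves acyl-CoA, was at -1.11 ± 0.26, Cdc42se1, a small effector of Cdc42, at -1.06 ± 0.20, and Cadm1, a cell adhesion molecule, at -1.14 ± 0.35 (adjusted p = 0.0365). Cadm1 lost its call in 9 of the 16 removals of an embryo (adjusted p up to 0.0788), and Acot7 fell under the fold minimum without Oct4 Ctrl 1-4 (-0.96). In the opposite direction the naming rule gave only Cchcr1 and Myl12b, a regulatory light chain of non-muscle myosin. Myl12b was at 97.0 to 142 CPM in Oct4 Ctrl and 45.4 to 85.2 CPM in Sox2 Ctrl (1.01 ± 0.19, adjusted p = 0.000229), and it fell under the fold minimum in 7 of the 16 removals, to 0.94 at the lowest.

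**Figure D3:**
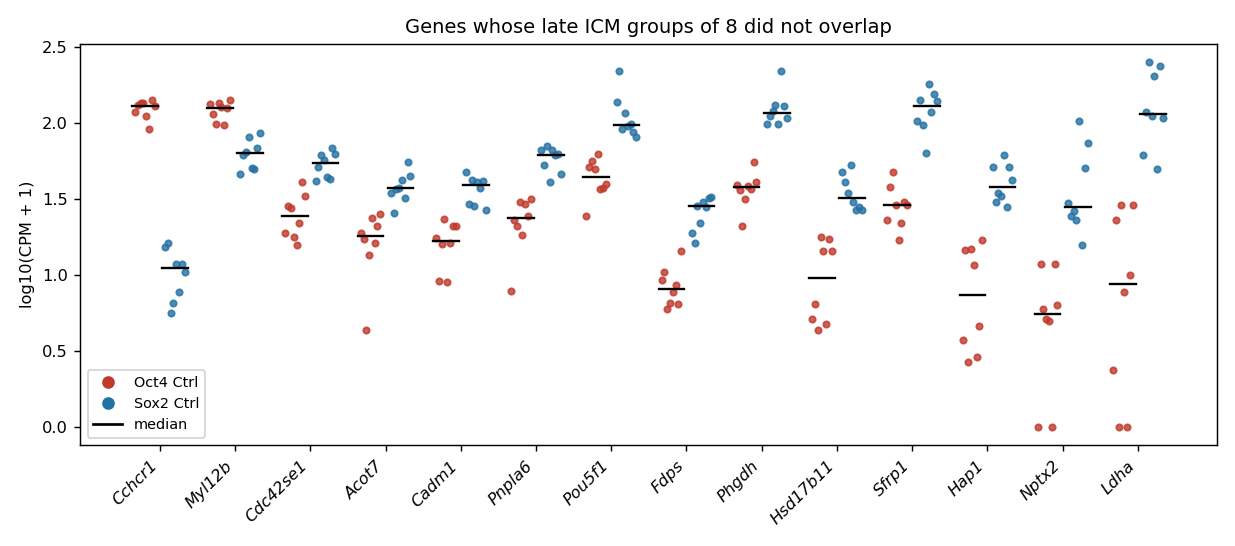
CPM per embryo, on a log10(CPM + 1) axis, of the 14 genes that the naming rule gave by fold change among those whose 8 Oct4 Ctrl and 8 Sox2 Ctrl late ICMs did not overlap (points are embryos). Cchcr1 and Myl12b lie higher in Oct4 Ctrl, and the other 12 genes, Ldha to Cdc42se1, lie higher in Sox2 Ctrl.

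Several genes of sterol synthesis were lower in Oct4 Ctrl than in Sox2 Ctrl late ICMs. Cells make cholesterol from acetyl-CoA through mevalonate, farnesyl diphosphate and squalene, and Srebf2 encodes the transcription factor that drives these genes when sterol is scarce. Of 23 genes tested, 9 were called, all lower in Oct4 Ctrl, beside 1.2% of all genes called in that direction, and 21 of 23 had a negative log2 fold change. Their median was -0.937, beside 0.00386 for all genes.

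In the early steps, Hmgcs1, which makes HMG-CoA, ran from 40 through a median of 67.6 to 108 CPM in Oct4 Ctrl and from 111 through 133 to 205 CPM in Sox2 Ctrl, without overlap (log2 fold change -1.05 ± 0.21, adjusted p = 0.000507). Mvd, which yields isopentenyl diphosphate, was called at -1.08 ± 0.30 (adjusted p = 0.0144). Fdps, farnesyl diphosphate synthase, ran from 5.01 through 7.15 to 13.4 CPM against 15.3 through 27.4 to 31.9 CPM, again without overlap (-1.61 ± 0.35, adjusted p = 0.00142).

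Among the enzymes after squalene, Sqle, squalene epoxidase, was called at -1.17 ± 0.37, Cyp51, the lanosterol demethylase, at -1.76 ± 0.49, Hsd17b7, a sterol ketoreductase, at -1.10 ± 0.32 and Sc5d, a sterol desaturase, at -1.27 ± 0.33. Each of these 4 genes overlapped between the groups. Fdft1, squalene synthase, had an adjusted p of 0.034 at -0.99, just under the fold minimum. Srebf2 was at a median of 50.9 CPM against 108 CPM and was not called (-0.75 ± 0.34, adjusted p = 0.194). Nsdhl and Msmo1 were the 2 genes of the list with positive values (0.54 and 0.04, not called).

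The Sqle call was lost in 8 of the 16 removals of an embryo (adjusted p up to 0.0953), the Cyp51 call without Sox2 Ctrl 2-6 (0.0647), the Mvd call without Oct4 Ctrl 1-4, the Hmgcs1 call without Oct4 Ctrl 1-4, 2-4 or Sox2 Ctrl 2-6 (to -0.97, adjusted p up to 0.00237) and the Hsd17b7 call without Oct4 Ctrl 1-2, 1-4 or 1-9. The sterol count moved with the embryos used. Leaving out each embryo in turn gave 5 to 10 called genes, with 5 without Oct4 Ctrl 1-4 and 6 without Sox2 Ctrl 2-6, while the median stayed between -1.02 and -0.78. Limma on the rlog values gave 5. Label set 1 alone gave 0 called genes with 20 of 23 negative (median -0.60), and label set 2 alone gave 4 with 22 of 23 negative (median -1.30). In early ICMs, in other embryos, 12 of the 23 were called lower in Oct4 Ctrl, beside 9.94% of all genes called there in either direction, with a median of -1.24. In morulae 1 was called in each direction, with a median of -0.0272.

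Of 20 glycolysis genes tested, 3 were called, all lower in Oct4 Ctrl, beside 2.63% of all genes called in either direction, and the median was -0.206. The count changed with the setting: thinning, limma on the rlog values and label set 1 alone each left 1 call, lower in Oct4 Ctrl, and label set 2 alone gave 2 higher and 1 lower. Eno1, an enolase, was at 0 to 5.01 CPM against 3.59 to 16.6 CPM (-2.07 ± 0.56, adjusted p = 0.0136). Pfkm, the muscle form of phosphofructokinase, was at 0 to 6.69 CPM against 4.07 to 15.2 CPM (-1.66 ± 0.53, adjusted p = 0.0437), and its call was lost in 11 of the 16 removals (adjusted p up to 0.102). Gapdh, the most abundant member, had medians of 1100 and 1480 CPM and was not called (-0.34 ± 0.31, adjusted p = 0.594). The glucose transporter Slc2a3 had 274 and 151 CPM (0.62 ± 0.32, adjusted p = 0.283). Of 8 enzymes of pyruvate and glutathione metabolism that the study singled out on embryos of this series, 1 was called, Ldha, and the list median was 0.0375.

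Several transcripts of the mitochondrial genome were higher in Oct4 Ctrl late ICMs. All 13 protein-coding genes tested had positive log2 fold changes, with a median of 0.93, and 5 were called, beside 1.43% of all genes called higher in Oct4 Ctrl. All genes of the mitochondrial chromosome together took 3.2% to 6.48% of all UMIs in Oct4 Ctrl (median 6.185%) and 2.51% to 4.77% in Sox2 Ctrl (median 3.65%). mt-Co2, a subunit of cytochrome c oxidase, ran from 191 through 505 to 831 CPM against 126 through 217 to 296 CPM (1.37 ± 0.20, adjusted p = 1.82e-06). mt-Atp6, of ATP synthase, was called at 1.35 ± 0.20, mt-Nd6, of complex I, at 1.20 ± 0.20, mt-Cytb, cytochrome b, at 1.10 ± 0.17 and mt-Co3 at 1.09 ± 0.21. The groups overlapped for each of the 5. mt-Nd4 and mt-Nd1 passed the adjusted p (6.87e-06 and 0.000145) at 0.61 and 0.56, under the fold minimum.

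Leaving out each embryo gave 4 to 6 called mitochondrial genes, and limma on the rlog values gave 3. mt-Cytb fell under the fold minimum without Sox2 Ctrl 2-4 (0.99), and mt-Co3 without Oct4 Ctrl 2-1 or 2-4 (to 0.96). Label set 1 alone gave 1 (median 0.53) and label set 2 alone 7 (median 1.02). In early ICMs 0 were called higher and 1 lower in Oct4 Ctrl, with a median of -0.0267. The line difference itself was larger in late than in early ICMs for mt-Atp6 (by 1.97, adjusted p = 1.16e-07), mt-Co3 (1.5, 6.41e-05), mt-Co2 (1.28, 0.000551) and mt-Nd6 (1.20, 0.00137). Of 21 listed nuclear genes of the respiratory chain 0 were called in the edgeR test and by DESeq2. That count lay near the 2.63% of all genes called by edgeR in either direction. In the edgeR test 5 of the 21 had an unadjusted p under 0.05, beside 2653 of all 14053 genes tested. Their median was -0.025. After thinning to equal depth 5 of the 13 mitochondrial genes were called, all 13 were positive and the median was 0.88.

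**Figure D4:**
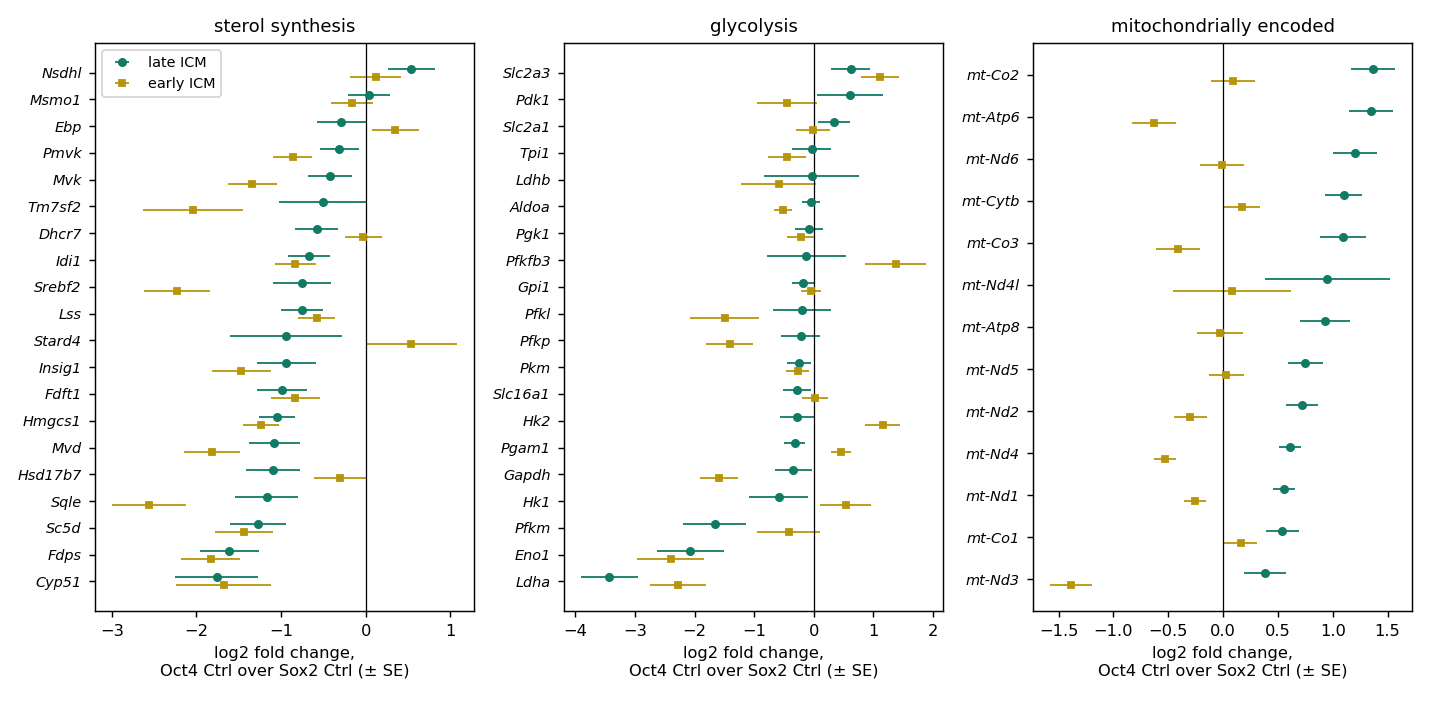
Log2 fold change (Oct4 Ctrl over Sox2 Ctrl) with SE for tested genes of sterol synthesis (20 of the 23), glycolysis and the mitochondrial genome, in late ICMs and in early ICMs. In late ICMs all sterol genes drawn but Nsdhl and Msmo1 lie below 0 and all 13 mitochondrial genes above it, and in early ICMs the median of the mitochondrial genes is -0.0267.

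Naive pluripotency genes were taken as a list that leaves out Pou5f1 and Sox2. Of 27 tested, 0 were called by edgeR or DESeq2, beside 2.63% of all genes in the edgeR test, so the count lay near that of all genes. In the edgeR test 3 had an unadjusted p under 0.05, beside 2653 of all 14053 genes tested. The list median was -0.05. Dppa5a, the most abundant, had medians of 4380 and 3680 CPM (0.26 ± 0.17). Dppa3, which protects maternal methylation, had 1700 and 1850 CPM (0.10 ± 0.16), and Klf4, a Krüppel-like factor of the naive network, 555 and 451 CPM (0.38 ± 0.23, adjusted p = 0.385). Zfp42, the marker Rex1, passed the adjusted p alone, with 449 and 327 CPM (0.49 ± 0.14, adjusted p = 0.0166). Leaving out each embryo gave 0 called genes every time, label set 2 alone gave 1 called higher in Oct4 Ctrl, and limma on the rlog values and the replicate block each gave 1 called lower.

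Of 11 genes of the later, formative epiblast 2 were called, both lower in Oct4 Ctrl, beside 1.2% of all genes called in that direction. Dnmt3a, a de novo DNA methyltransferase, ran from 3.8 through 14.8 to 41.5 CPM against 31.1 through 35.3 to 94.7 CPM (-1.35 ± 0.31, adjusted p = 0.00257). Lefty1, a secreted Nodal inhibitor, had 0 UMIs in all 8 Oct4 Ctrl late ICMs, which allows up to 0.561 CPM over the group (3 UMIs, counting error only), and was found in 3 Sox2 Ctrl embryos, at up to 12.9 CPM. Its call was lost in 5 of the 16 removals (adjusted p up to 0.331), and label set 1 alone gave no difference in the fit (0.00), against -4.87 in label set 2 (adjusted p = 0.0882). Otx2, Foxd3 and Dnmt3b were not called (-0.29, 0.43 and 0.09).

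Primitive endoderm genes varied widely among embryos of each line. Of 21 tested, 1 was called, near the 2.63% of all genes: Lamb1, a laminin of the basement membrane, at 16.5 to 234 CPM in Oct4 Ctrl and 141 to 368 CPM in Sox2 Ctrl (-1.03 ± 0.28, adjusted p = 0.0146), a call lost in 6 of the 16 removals (adjusted p up to 0.0558). The list median was -0.30, with 17 of 21 negative. Gata4 had medians of 0 and 30.2 CPM and was not called (-1.59 ± 0.60, adjusted p = 0.105), and Pdgfra, a receptor of this lineage, had 13.4 and 32.8 CPM (-1.30 ± 0.46, adjusted p = 0.0824). Sox17 ran from 1.38 to 384 CPM in Oct4 Ctrl, wider than the 14.3 to 212 CPM of Sox2 Ctrl. Without Oct4 Ctrl 1-9 the list had 6 called genes and a median of -0.70. Label set 1 alone gave a median of 0.44 with 0 called, and label set 2 alone a median of -1.25 with 6 called.

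Of 28 trophectoderm genes 1 was called, near the 2.63% of all genes: Aqp3, a water channel, at 76.6 to 453 CPM in Oct4 Ctrl and 53.1 to 152 CPM in Sox2 Ctrl (1.38 ± 0.29, adjusted p = 0.000857), with a list median of 0.0898. The list turned with the label set: set 1 alone gave a median of -0.39 with 8 of 28 genes positive and 1 called lower in Oct4 Ctrl, and set 2 alone a median of 0.79 with 22 of 28 positive and 4 called higher. Without Sox2 Ctrl 1-10 (median 0.38) or 2-6, 2 genes of the list were called higher in Oct4 Ctrl, and without Oct4 Ctrl 2-9 1 was called in each direction. Krt8 and Krt18, keratins of this lineage, reached 1250 and 1160 CPM in the highest Sox2 Ctrl embryo and were not called.

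In the lists that follow, counts of called genes stand beside 2.63% of all genes called in either direction. Of 13 LIF and STAT3 genes 1 was called, the feedback inhibitor Socs3, at 29.1 to 191 CPM against 10.6 to 67.4 CPM (1.49 ± 0.46, adjusted p = 0.0335). That value was 2.73 in label set 1 and -0.15 in label set 2, and the call was lost in 7 of the 16 removals (adjusted p up to 0.127). Of 17 BMP, Wnt and Nodal genes 1 was called, Sfrp1. Of 12 targets of the ERK pathway, which the inhibitor blocks, 0 were called by edgeR and 1 by DESeq2 (Spry1, a feedback inhibitor, at 1.27, adjusted p = 0.0382, and 0.0661 in edgeR). In the edgeR test 4 of the 12 had an unadjusted p under 0.05, beside 2653 of all 14053 genes tested. The list median was -0.304.

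Among the other lists, 1 of 22 genes of the integrated stress response (Phgdh), 1 of 13 heat shock genes (Hspa1b) and 1 of 18 p53 targets were called, each lower in Oct4 Ctrl. The p53 target was Perp, a desmosomal membrane protein (-1.12 ± 0.35, adjusted p = 0.0376), and it lost its call in 8 of the 16 removals (adjusted p up to 0.146). Of 25 imprinted genes 2 were called lower in Oct4 Ctrl: Mest, at 0 to 9.37 CPM against 7.59 to 24.7 CPM (-1.94 ± 0.52, adjusted p = 0.0125), and Cdkn1c, a cell cycle inhibitor, at 0 to 3.8 CPM against 3.47 to 12 CPM (-2.18 ± 0.67, adjusted p = 0.0357, lost in 6 removals). Mest overlaps Copg2 on the opposite strand. Of 12 MHC class I and antigen processing genes 1 was called, H2-K1, and H2-Bl, called higher in Oct4 Ctrl, was not in this list.

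On the Oct4 Ctrl side, 1 of 86 cytosolic ribosomal protein genes was called, the copy Rpl32l, at 0 to 18.7 CPM against 0 to 2.37 CPM (2.23 ± 0.67, adjusted p = 0.0309), lost without Oct4 Ctrl 1-4 or 2-9 or without Sox2 Ctrl 1-4 (adjusted p up to 0.0954). Of 16 oocyte and maternal genes 1 was called, Ooep, of the subcortical complex of the egg (1.03 ± 0.31, adjusted p = 0.0335, lost in 6 removals). No gene was called by edgeR in 13 lists with 256 genes in all, among them 74 mitochondrial ribosomal proteins, 38 proteasome subunits, 25 cell cycle and replication genes, 16 endoplasmic reticulum chaperones, 12 immediate early genes, 12 amino acid transporters, 9 DNA methylation enzymes (Dnmt3a, called, was counted among the formative genes), 4 Y-linked genes, 4 genes of the X inactivation centre and 2 two-cell genes. Of these 256 genes 61 had an unadjusted p under 0.05 in the edgeR test, beside 2653 of all 14053 genes tested. DESeq2 called 2, Spry1 and the chaperone Pdia4 (1.01, adjusted p = 0.0281). Among proteasome subunits 33 of 38 had negative values, with a median of -0.223.

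Some genes were present in part of the Oct4 Ctrl embryos at a high level and nearly absent from the rest. Gm10039, annotated as a processed pseudogene, lies 5.6 kb past the end of Hap1 on chromosome 11. It was at 94.5 to 118 CPM in 6 of 8 Oct4 Ctrl late ICMs and at 1.34 and 1.37 CPM in the other 2. All 8 Sox2 Ctrl late ICMs had 0 to 1.2 CPM. Rps24-ps3, a ribosomal protein pseudogene on the X chromosome, was at 235 to 455 CPM in 5 Oct4 Ctrl embryos and 1.34 to 3.34 CPM in the other 3, with 0 to 5.89 CPM in Sox2 Ctrl. Gm14513, also on the X, was at 351 to 409 CPM in 3 Oct4 Ctrl embryos and at 0 to 2.74 CPM in 5.

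Named genes did the same. Cap1, which binds actin, was at 86.3 to 156 CPM in 6 Oct4 Ctrl embryos and at 2.74 and 13.4 CPM in the others, with 0 to 18.9 CPM in Sox2 Ctrl. St6galnac4, a sialyltransferase, was at 56.4 to 97.5 CPM in 5 and at 0 to 4.02 CPM in 3, with 0 to 4.07 CPM in Sox2 Ctrl. The same split was seen in other Oct4 Ctrl embryos: in early ICMs Gm10039 was at 40.9 to 81.9 CPM in 5 of 8 and at up to 1.22 CPM in 3, and St6galnac4 at 59.5 to 84.2 CPM in 4 and up to 2.43 CPM in 4. St6galnac4 did not pass 20.2 CPM in any Oct4 Ctrl morula. Wide ranges were found in other Oct4 late ICMs too, with Gm10039 at 0 to 192 CPM in Oct4 KO and 0 to 158 CPM in Oct4 MWT, and Cap1 at 0 to 197 CPM in Oct4 MWT. It was not wholly absent from the Sox2 line, since 1 of 8 Sox2 Ctrl morulae had 364 CPM of Gm14513 and 1 had 47.5 CPM of Cap1, and in Sox2 MWT early ICMs, with a Cap1 median of 6.46 CPM, the highest embryo lay in the range of the high Oct4 Ctrl late ICMs. What sets these embryos apart was not tested, and the genes, apart from Cap1, were chosen after their values were seen.

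Embryos of the earlier stages showed which line differences were met there too. These were other embryos of the same lines, so no library is shared. In early ICMs 1397 genes (9.94%) were called between Oct4 Ctrl and Sox2 Ctrl, and in morulae 981 (6.98%). Of the 201 genes higher in Oct4 Ctrl late ICMs, 40 were also called higher in early ICMs (19.9% of the late list and 6.22% of the 643 genes of the early list), and 38 in morulae (18.9%, and 6.04% of 629). Of the 169 genes higher in Sox2 Ctrl late ICMs, 64 were also called in early ICMs (37.9%, and 8.49% of 754) and 11 in morulae (6.51%, and 3.12% of 352). Calls in the opposite direction numbered 4 and 1 in early ICMs and 3 and 5 in morulae. At neither earlier stage were 136 of the 201 genes (67.7%) and 97 of the 169 genes (57.4%) called in the same direction.

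**Figure D5:**
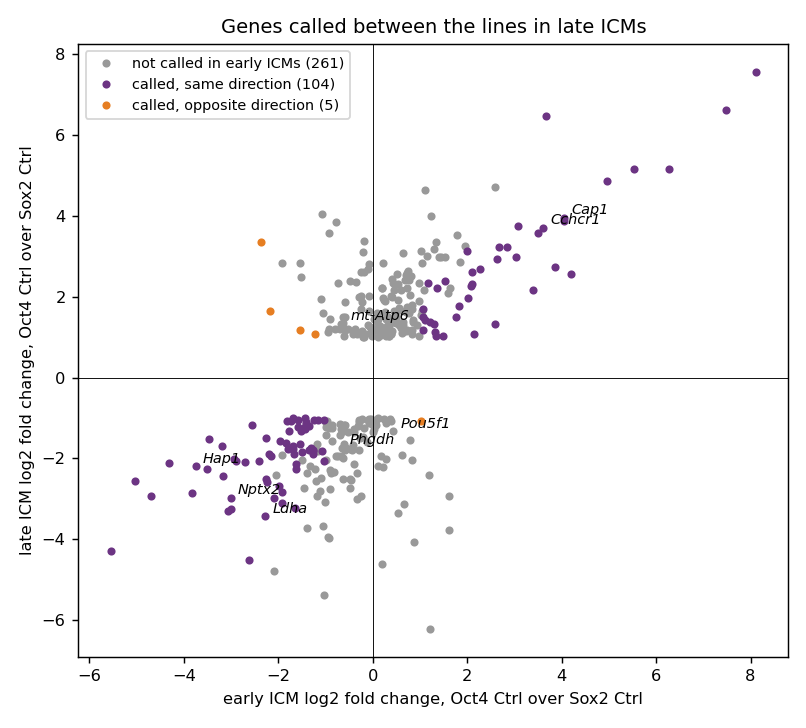
Log2 fold change of Oct4 Ctrl over Sox2 Ctrl in early ICMs (horizontal axis) and in late ICMs (vertical axis) for the 370 genes called in late ICMs. Of these, 104 were called in the same direction in early ICMs, 5 in the opposite direction and 261 not at all.

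A total of 16 genes were called in the same direction at all 3 stages, 13 higher in Oct4 Ctrl and 3 in Sox2 Ctrl. On the Oct4 Ctrl side they included Cchcr1, Cap1, H2-Bl and Gm10039. Wdfy1, an endosomal adaptor, had late log2 fold changes of 1.49 ± 0.40 (adjusted p = 0.0134), Wdr76, of the ubiquitin and DNA damage pathways, 1.42 ± 0.28 (adjusted p = 0.000499), and Casc4, a Golgi membrane protein, 1.13 ± 0.29 (adjusted p = 0.00945). Casc4 lost its call without Oct4 Ctrl 1-3 (0.84, adjusted p = 0.077). The genes on the Sox2 Ctrl side included Dipk2a, a secreted kinase-like protein (-1.57, adjusted p = 0.00852), and Shisal2b (-1.68, adjusted p = 0.0145).

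The line difference differed between late and early ICMs in 918 genes (6.53%) by the interaction contrast. Among the genes named above, Myl12b had late and early values of 1.01 and -0.19 (interaction 1.20, adjusted p = 0.00112). Ddah2 had estimates of opposite sign (1.21 and -0.80, interaction 2.02, adjusted p = 0.000551). Phgdh had late and early values of -1.73 and -0.65 (interaction -1.08, adjusted p = 0.0452). Sfrp1 was lower in Oct4 Ctrl in late ICMs (-2.06) and in early ICMs (-1.03) and higher in morulae (1.33, adjusted p = 0.00022), all called. For Ldha the late and early values of -3.43 and -2.28 had an interaction of -1.15 (adjusted p = 0.298).

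Genes that change with stage or with loss of either factor were taken from other embryos of the series and looked up in the Ctrl late ICMs. Of 993 genes that rose from early to late ICM in Oct4 MWT embryos, 53 were higher in Oct4 Ctrl and 16 in Sox2 Ctrl late ICMs (6.95% called, beside 2.63% of all genes tested, and a median log2 fold change of 0.185, beside 0.00386). Of 821 genes that fell, 10 and 25 were called (4.26%, median -0.11). Of 859 genes lower in Oct4 KO than in Oct4 Ctrl early ICMs, 27 were higher and 33 lower in Oct4 Ctrl late ICMs than in Sox2 Ctrl (6.98%, median -0.0357). Of 670 genes higher in Oct4 KO early ICMs, 15 and 5 were called (2.99%, median 0.135). Of 238 genes lower in Sox2 KO early ICMs, 10 and 4 were called (5.88%, median 0.0895), and of 221 higher there, 3 and 13 (7.24%, median -0.106). Every class holds only genes already called in another comparison, so the share over all genes tested is not a like baseline. The stage labels of the Oct4 MWT ICMs differ between the title and the other fields, and the title was used.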

How the data were processed

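The deposited table of counts holds whole numbers of UMIs for 29022 genes. The authors state that UMIs were read out with UMI-tools, reads trimmed by Cutadapt, mapped on mm10 by TopHat2 with GENCODE vM23 transcripts and assigned by featureCounts, after which TRUmiCount gave the number of unique molecules. Tool versions and the strand setting are not given in the sources used here. The deposited rlog values, on a log2 scale, were made by the authors with DESeq2 and served only as an alternative. Starts were shifted to 1-based positions.

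The Ctrl late ICMs, the gene lists and the tests were chosen with earlier results of these data known. Genes with a UMI in 50% or more of the embryos at 1 or more stages (14053) were scaled by TMM and fitted over 96 Ctrl and KO embryos in 12 groups with edgeR 4.0.16 in R 4.3.3 (glmQLFit, glmQLFTest). A gene was called at a Benjamini-Hochberg adjusted p under 0.05 over all genes and a log2 fold change of at least 1 in size. SE is the log2 fold change divided by the square root of F. CPM used raw totals. Exact tests used scipy 1.17.1. Named were Pou5f1, Sox2, up to 12 called genes per direction with no overlap and a mean of 20 CPM or more where higher (predicted genes, Riken clones and pseudogenes passed over), called and abundant list members, genes near the targeted loci (the largest 6) and genes called at all 3 stages. Others were chosen after their values were seen. The fit was tested on simulated data. Over 56 pairs of embryos within the groups the lowest chi-square per gene was 2.91, so no library was a copy of another. Labels do not say that embryos came from separate litters, so p-values measure only the spread between these embryos. The meaning of the first digit of the embryo numbers (label set) and of the label MWT is not spelled out in the sources used here. ERCC spike-ins and chromatin data were not used here, and some members of the lists are counted but not reported here by name. Alternatives covered the scaling, the filter on low counts, DESeq2 1.42.0, limma 3.58.1 on the rlog values, thinning, the embryos in the fit, the label sets, the replicate block and each embryo left out.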

Additional observations from a re-analysis of the deposited data

Results flagged for a closer look

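Of 166 groups of 8 late ICM values screened (76 of the named genes and the per-embryo measures, in each line), 13 had an embryo far from the rest by Dixon's criterion, and chance gives about 1 in 20. Sox2 Ctrl 1-4 had the highest Pou5f1, 220 CPM against 80.4 to 136 in the other embryos of its group, and the highest Aqp3, 152 CPM against 53.1 to 89.6. Oct4 Ctrl 1-9 had the lowest mt-Nd6, 24.1 CPM against 64.0 to 95.2, the lowest mt-Nd4, 6340 CPM against 11900 to 14300, and the highest Rcn1, 16.1 CPM against 0 to 5.57. Rcn1, a calcium-binding protein of the endoplasmic reticulum, was lower in Oct4 Ctrl (log2 fold change -2.92, adjusted p = 0.000334 in the edgeR test). Oct4 Ctrl 1-3 had 163 CPM of Casc4 against 39.9 to 78.0, and Oct4 Ctrl 1-4 had 16.7 CPM of Mboat1 against 0 to 7.61. Sox2 Ctrl 2-6 had 368 CPM of Lamb1 against 141 to 242, and Sox2 Ctrl 2-3 had 221 CPM of Phgdh against 97.5 to 130. Sox2 Ctrl 2-4 had 12.9 CPM of Lefty1 against 0 to 2.37, and Sox2 Ctrl 2-1 had an epiblast marker sum of 3860 CPM against 2210 to 2740, with Nanog, a member of that sum, at 1500 CPM against 670 to 1060. Oct4 Ctrl 2-9 had 563 CPM of Dnmt3b against 87.7 to 231.

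For 16 of these 76 genes, beside 918 of 14053 genes tested (6.53%), the line difference of late ICMs differed from that of early ICMs by the edgeR interaction contrast. It was larger towards Oct4 Ctrl in late ICMs for Ddah2 (by 2.02, adjusted p = 0.000551), mt-Atp6 (1.97, 1.16e-07), Ly6g6e (1.59, 0.00679), mt-Co3 (1.5, 6.41e-05), mt-Co2 (1.28, 0.000551), mt-Nd6 (1.20, 0.00137) and Myl12b (1.20, 0.00112). It was larger towards Sox2 Ctrl for Mboat1, a lysophospholipid acyltransferase (-2.42, adjusted p = 0.00136, with a late log2 fold change of -2.21 and an early value of 0.22), Pou5f1 (-1.76, 1.4e-06), Perp (-1.41, 0.0294), Lamb1 (-1.25, 0.02) and Phgdh (-1.08, 0.0452). The other 4 genes were not called in late ICMs: Foxd3, an epiblast transcription factor (2.47, adjusted p = 0.0103), Srebf2 (1.48, 0.0419), Gapdh (1.25, 0.0464) and mt-Nd4 (1.14, 4.45e-10). The 76 genes include the 59 named called genes beside Pou5f1, picked for a large late difference, so their share is not comparable with that of all genes. Rcn1 and Mboat1 were chosen after their values were seen.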

How the results depend on the processing

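All 370 calls kept their direction when each of the 16 embryos was left out and under DESeq2 size factors, totals alone and DESeq2, though not all stayed called. The 370 genes were called on these same embryos, so a kept direction is no independent evidence for them. Leaving out each embryo gave 289 to 400 called genes, 163 to 208 higher in Oct4 Ctrl and 122 to 192 higher in Sox2 Ctrl. Pou5f1 stayed called, at -1.45 to -1.13, Sox2 was at 0.74 to 0.96, and the difference in genes detected was -759.9 to -625.4. The scalings and DESeq2 gave 343 to 375 genes, and totals alone split them into 181 and 194. Limma on the rlog values gave 158 genes in late ICMs (97 and 61), 432 in early ICMs and 298 in morulae. Without the fold minimum there were 807 genes in late ICMs (416 and 391), 3644 in early ICMs, 2950 in morulae and 1833 for the difference between late and early ICMs, and Sox2 passed at 0.84. Label set 1 alone gave 244 genes, 113 of them higher in Oct4 Ctrl, and Sox2 at 1.35, and label set 2 gave 346 genes. The direction held in 369 and 364 of the 370 genes, of which 114 and 120 were also called. Each label set is a part of the embryos that gave the calls. Of 59 named called genes beside Pou5f1, 22 stayed called in label set 1, 31 in label set 2 and 36 with limma on the rlog values. Thinned to equal depth, embryos of the groups differed by -97.1 genes detected (exact permutation p = 0.349). The cause of these shifts was not tested, apart from the looser criterion without a fold minimum.

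Embryo numbers 1-4, 2-1 and 2-4 occur in both lines, and their deviations correlated at 0.0421, -0.0591 and -0.0388, so the numbers did not pair the embryos, and in no case was the embryo of the same number the best match. The replicate block on these embryos gave 262 genes, 126 higher in Oct4 Ctrl, with Pou5f1 at -1.60 and Sox2 at 0.63, beside 298 genes for the same embryos without the block, a setting chosen after seeing the data. Of these 59 genes, 38 stayed called in all 16 removals and 21 did not in 1 or more. With 525755 to 929681 UMIs per embryo, a gene under about 1 CPM had at most 1 molecule in a library, and smaller differences were not detectable at this depth.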
